A study of Mus musculus with 26 samples.

Results

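S49 cells are a mouse T lymphoma line that grows in suspension. Cyclic AMP activates protein kinase A (PKA), whose catalytic subunit phosphorylates CREB and related factors at promoters; immediate-early genes then rise within minutes to hours. In S49 cells cyclic AMP is known as a signal that stops the cell cycle and then kills the cell, and the deathless variant (D-) is known as a line that stops but survives. 8-CPT-cAMP is a cell-permeable analogue of cyclic AMP. The question here was which genes of D- cells responded otherwise than in wild-type (WT) cells during the first hours of treatment, when both lines have the same drug in the medium.

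The study holds 26 single-colour Affymetrix arrays, 1 per RNA sample. The 20 arrays described here are D- cells untreated (4 arrays), after 2 h (3) and after 6 h (3) of 8-CPT-cAMP, and WT cells untreated (4), after 2 h (3) and after 6 h (3). The labels call the replicates biological but do not say what separates them, and p-values here reflect only how far the 26 arrays scatter within their groups, which may be technical. Each line stands for itself: D- and WT are 1 line each, and the labels name no gene that differs between them. All groups were grown in the same medium per the labels.

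For each probe set, the difference of response was (D- treated minus D- untreated) minus (WT treated minus WT untreated), on the log2 scale, so a positive value is a response higher in D- cells. A gene whose response rose less in D- cells and a gene that fell more in D- cells both have a negative value. The 20 arrays were chosen by the source name in the labels, while the fit and its filter took in all 26, the 24 h arrays included. Of 22690 probe sets, 12724 had a log2 intensity of 5 or more on at least 3 of the 26 arrays and were tested, with 7435 genes named by at least 1 of them. The probe set with the highest mean stands for its gene unless another is named. A difference was called where limma's adjusted p, by Benjamini-Hochberg over all probe sets tested, was under 0.05. GCRMA values under log2 5 lie near the floor of the array and have little meaning, so a second value, with all values under 5 set to 5 (the floored value), is given for the genes described singly with a group mean under 5.

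Of the 10 T cell markers listed for the check of the cells, 8 were on the array; 8 had a mean of 5 or more in WT cells and 7 in D- cells. The exception was Cd247, the zeta chain of the T cell receptor complex, with a highest value of 5.16 on the D- arrays described here and a lowest of 8.87 on the WT arrays. B cell, myeloid, erythroid and stromal marker lists had mean levels between 3.82 and 5.16 in each group, and 1 of their measured members, Pdgfrb, was called (lower in D- cells at 6 h, a call kept in 2 of the 20 fits that leave out 1 array). With a mean of 5 or more, each line had 2 of 7 B cell, 3 of 10 myeloid, 1 of 5 erythroid and 2 of 9 stromal markers. Over both lines these were Cd22, Cd79a, Adgre1, Csf1r, S100a9, Klf1, Acta2 and Vim. The arrays within a group correlated between 0.972 and 0.995. Within groups the arrays fell into 2 clusters along an axis that held 38.8% of the within-group variance: 8 of the 20 arrays, with untreated replicates 1 and 2 and treated replicate 1 of each line, and the other 12. The labels name no batch that matches this split, which is laid out alike in D- and WT cells. The log2 difference between the 3' and 5' Gapdh probe sets was -0.0901 ± 0.0637 in D- and -0.0658 ± 0.0851 in WT cells at 2 h, and -0.0786 ± 0.0532 in D- and -0.0402 ± 0.102 in WT cells at 6 h (SD, n = 3 each).

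Most of the response was shared. By limma's test 21.7% of probe sets changed in D- and 24.6% in WT cells at 2 h, and 30.4% in D- and 36.2% in WT cells at 6 h. Of 888 probe sets that passed limma's test with a change of at least 2-fold in WT cells at 2 h, 879 had the same sign in D- cells, with a median ratio of the D- to the WT log2 response of 0.865. At 6 h 1210 of 1219 had the same sign, with a median ratio of 0.80. Chosen instead in D- cells, 796 of 799 at 2 h and 915 of 928 at 6 h had the same sign in WT cells, with median ratios of the WT to the D- response of 0.921 and 0.999. Across probe sets, D- and WT responses had a Pearson r of 0.872 at 2 h and 0.874 at 6 h; probe sets are not replicates, and each line's 2 h and 6 h responses share its 4 untreated arrays.

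**Figure D1:**
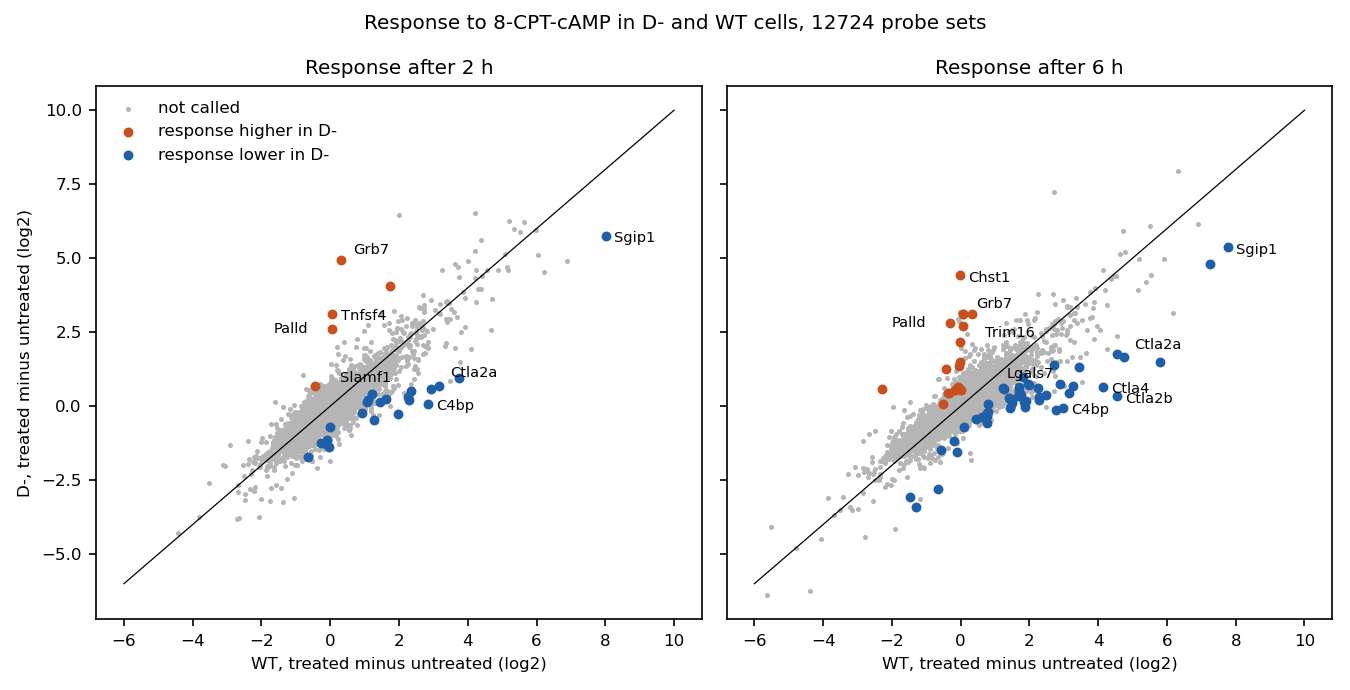
Log2 response (treated minus untreated group means) of D- cells (vertical axis) against WT cells (horizontal axis) after 2 h and 6 h; each point is 1 of 12724 probe sets and the line marks equal responses. Orange points are the 5 probe sets at 2 h and 18 at 6 h whose response was higher in D- cells, and blue points the 22 and 48 whose response was lower.

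The line difference passed the test in 27 probe sets at 2 h (0.212% of those tested), 5 higher (0.0393%) and 22 lower (0.173%) in D- cells, and in 66 at 6 h (0.519%), 18 higher (0.141%) and 48 lower (0.377%). At an unadjusted p under 0.05 there were 737 and 790. Of the 22 lower at 2 h, 14 rose in WT cells alone by the test of each line, 5 fell in D- cells alone, 2 rose in both and 1 fell in both. Of the 48 lower at 6 h, 25 rose in WT cells alone and 14 in both lines. Of the 18 higher at 6 h, 13 rose in D- cells alone. A test passed in 1 line and not in the other does not itself show a difference; the difference of response is the test of it. At 2 h 13 of the 27, and at 6 h 28 of the 66, had a group mean under log2 5. Leaving out 1 of the 20 arrays gave 7 to 49 calls at 2 h and 35 to 110 at 6 h; WT 2 h replicate 3 gave the lowest and WT 2 h replicate 1 the highest 2 h count, and WT 6 h replicate 2 the lowest and WT 6 h replicate 1 the highest 6 h count.

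A difference of 1 sign at both times was found in 18 probe sets, 5 higher and 13 lower in D- cells (0.141% of those tested). They name 16 genes, 12 of them by the probe set that stands for the gene; both contrasts share the 8 untreated arrays. Without WT 2 h replicate 3 there were 5 and without WT 2 h replicate 1 there were 25. Fitted on the 20 arrays alone there were 13, and the calls of Ctla2a, Lgals7 and Wdtc1 at 2 h, Cipc at 6 h and Amot at both times were lost. A further test, of the difference at 6 h minus that at 2 h, uses no untreated array and called 14 probe sets (0.11%; 648 at an unadjusted p under 0.05), 10 higher (0.0786%) and 4 lower (0.0314%). It called 9 of the 48 probe sets that passed at 6 h and not at 2 h (0.0707% of those tested), and these alone are counted as seen at 6 h only. It called none (0%) of the 9 that passed at 2 h and not at 6 h, so no probe set is counted as seen at 2 h only. Of the 48, 24 had an unadjusted p under 0.05 with the same sign at 2 h, and of the 9, 4 had one at 6 h. Being counted at 1 time only does not mean that the difference was absent at the other.

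**Figure D2:**
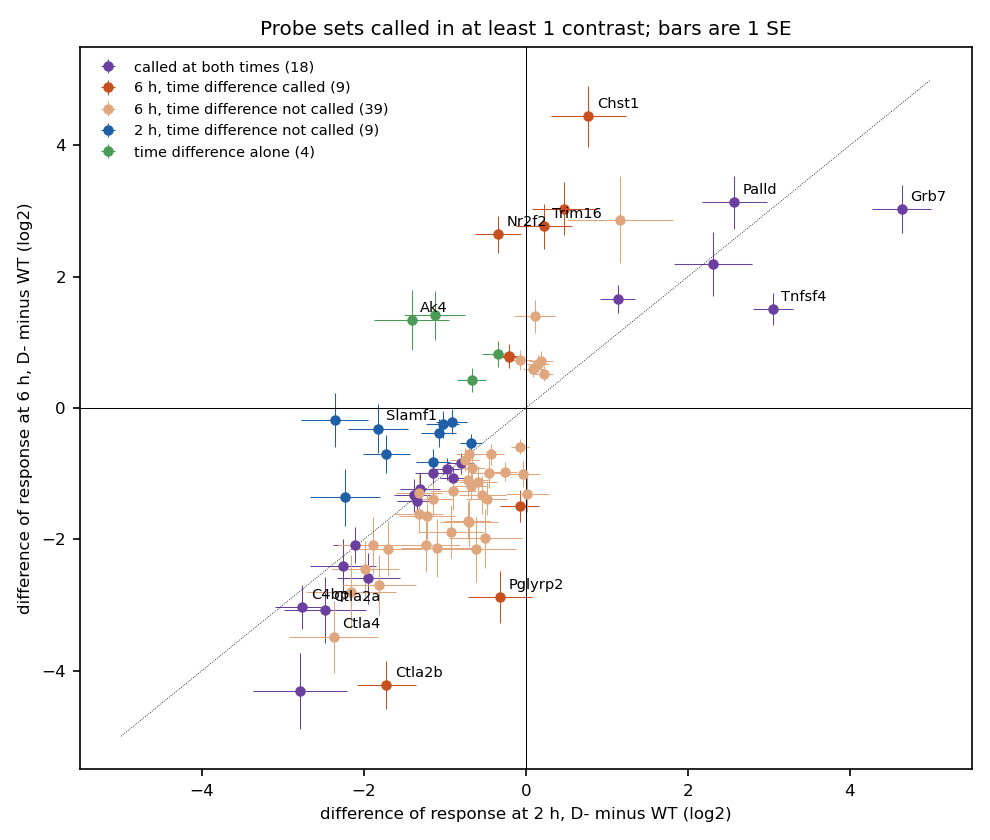
Difference of response, D- minus WT (log2), at 6 h (vertical axis) against 2 h (horizontal axis) for the 79 probe sets called in at least 1 of the 3 contrasts; bars are 1 SE and the dotted line marks equal differences. Grb7 and Tnfsf4 lie right of the line, Chst1, Trim16 and Nr2f2 lie near 0 at 2 h and high at 6 h, and Ctla2b and Pglyrp2 lie lower at 6 h than at 2 h.

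Ctla2a and Ctla2b, both among the called genes, encode inhibitors of cysteine proteases that resemble the propeptide of cathepsins. Their RefSeq start windows on chromosome 13 (GRCm38.p6, minus strand), chr13:60936576-60936875 for Ctla2a and chr13:60897398-60897697 for Ctla2b, are shown because the paralogs moved together and their RNAs may share probes. Each window runs 5′ to 3′, and capitals mark the AP-1 motif TGACTCA and the short form of the cyclic AMP response element (CRE), TGACG.
Ctla2a: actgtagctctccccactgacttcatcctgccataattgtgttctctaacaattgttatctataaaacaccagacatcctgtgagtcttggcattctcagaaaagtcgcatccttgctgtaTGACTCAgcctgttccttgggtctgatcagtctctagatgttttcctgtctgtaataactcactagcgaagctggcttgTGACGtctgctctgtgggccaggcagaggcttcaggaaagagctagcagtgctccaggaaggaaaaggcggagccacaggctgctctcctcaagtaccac
Ctla2b: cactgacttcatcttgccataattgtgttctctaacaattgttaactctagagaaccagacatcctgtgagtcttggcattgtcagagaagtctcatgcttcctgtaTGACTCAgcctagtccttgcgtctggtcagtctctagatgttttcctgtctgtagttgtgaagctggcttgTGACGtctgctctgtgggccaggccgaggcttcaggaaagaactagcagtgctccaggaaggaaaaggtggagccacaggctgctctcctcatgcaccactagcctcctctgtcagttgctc
The windows were identical at 255 of 278 aligned bases (91.7%), and both hold each motif once.

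Of the 24 genes with a difference at both times or at 6 h only, 21 matched at least 1 RefSeq window. The short element (TGACG or CGTCA, both strands, in any window of a gene) was in 7 of 14 genes with a lower and 2 of 7 with a higher difference, against 23% of 27025 genes with a window and 20.8% of 32851 windows. The full element TGACGTCA was in none of either group, against 2.03% of genes. The AP-1 motif (TGACTCA or TGAGTCA) was in 2 of 14 and 1 of 7, against 5.95%. These 2 of 14 were the paralogs Ctla2a and Ctla2b, whose windows are nearly alike. Both also count among the 7 of 14 with the short element, so they are not separate matches. A match is a run of letters in a window and says nothing of binding.

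Among the genes higher in D- cells at both times, the signalling adaptor Grb7, which binds activated receptor tyrosine kinases through its SH2 domain, had the largest 2 h difference. In D- cells its log2 intensity was 3.00, 3.04, 3.08 and 3.13 untreated, 8.61, 7.66 and 7.75 at 2 h and 6.78, 5.98 and 5.75 at 6 h; in WT cells it was 2.98, 3.07, 3.06 and 2.98 untreated, 3.71, 3.11 and 3.15 at 2 h and 3.21, 3.03 and 3.06 at 6 h. Every WT array lay under log2 4, and every treated D- array lay above 5. Of the arrays described here, only treated D- arrays reached the filter level of log2 5 for Grb7. That some arrays lay above 5 thus follows from the filter, which takes no account of line or treatment. The same holds for Nr2f2 and Trim16 through D- arrays at 6 h, and for C4bp, Ctla2b and Pglyrp2 through treated WT arrays. The Grb7 difference of response was 4.64 ± 0.37 at 2 h (limma adjusted p = 2.4e-07) and 3.03 ± 0.37 at 6 h (adjusted p = 0.000118), with SE after ±. As the untreated level lay under 5 the floored values were 3.01 and 1.17, and with values floored before the fit the 6 h difference was no longer called.

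Tnfsf4 encodes OX40 ligand, a TNF family ligand that costimulates T cells. Its level in D- cells was 4.62, 4.70, 5.14 and 5.00 untreated, 7.54, 8.17 and 8.23 at 2 h and 6.27, 6.58 and 6.19 at 6 h; in WT cells it was 4.48, 4.70, 4.47 and 4.48, then 4.65, 4.67 and 4.46, then 4.37, 4.59 and 4.54. WT arrays stayed under 5 throughout. The difference was 3.05 ± 0.25 at 2 h (limma adjusted p = 2.4e-07) and 1.51 ± 0.25 at 6 h (adjusted p = 0.00295), and it was smaller at 6 h than at 2 h by the direct test (-1.54 ± 0.27, adjusted p = 0.013). The floored values were 2.94 and 1.31.

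Palld encodes palladin, a scaffold of actin filaments. D- cells had 7.25, 6.66, 6.41 and 6.39 untreated, 9.71, 9.09 and 9.09 at 2 h and 9.85, 9.49 and 9.11 at 6 h; WT cells had 6.48, 6.49, 6.29 and 6.22, then 6.37, 6.40 and 6.47, then 6.32, 5.99 and 5.83. Every treated D- array, at 9.09 or more, lay above every treated WT array, at 6.47 or less. The difference was 2.58 ± 0.40 at 2 h (limma adjusted p = 0.00543) and 3.13 ± 0.40 at 6 h (adjusted p = 0.000197).

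Agtpbp1, which removes glutamate residues from tubulin, moved in opposite directions. D- cells had 7.35, 7.71, 7.40 and 7.09 untreated, 8.02, 8.11 and 8.08 at 2 h and 8.72, 8.40 and 8.78 at 6 h; WT cells had 7.46, 7.54, 7.81 and 7.59, then 7.11, 7.17 and 7.16, then 7.39, 6.98 and 7.18. It rose in D- cells and fell in WT cells at both times by the tests of each line. The difference was 1.14 ± 0.22 at 2 h (limma adjusted p = 0.0265) and 1.66 ± 0.22 at 6 h (adjusted p = 0.000216), and the 2 h call was lost without any 1 of 6 arrays: D- untreated replicates 1 and 4 and replicates 2 and 3 of each 2 h group (highest adjusted p = 0.0842). Amot, which encodes angiomotin, was called at both times by 1 of its 3 probe sets (2.31 ± 0.48 and 2.19 ± 0.48; limma adjusted p = 0.0451 and 0.0391), while its brightest probe set had -1.69 and -1.23 and was not called.

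Among the genes lower in D- cells at both times, the named genes with the largest WT responses were Sgip1 and Ctla2a. Ctla2a in D- cells had 4.35, 4.25, 4.85 and 4.54 untreated, 6.23, 5.04 and 4.29 at 2 h and 7.12, 5.81 and 5.56 at 6 h; in WT cells it had 5.37, 4.97, 5.86 and 5.20, then 8.03, 8.68 and 8.86, then 10.13, 10.37 and 9.77. Treated D- and WT arrays did not overlap, and neither did the untreated arrays of the lines. Treated D- replicate 1 was the highest D- array at both times. The difference was -2.48 ± 0.50 at 2 h (limma adjusted p = 0.0386) and -3.07 ± 0.50 at 6 h (adjusted p = 0.00295). The floored values were -2.74 and -3.57. The 2 h call remained in 8 of the 20 fits that left out 1 array, the 6 h call in all 20. Its paralog Ctla2b was counted as seen at 6 h only, but its 2 h difference missed the threshold narrowly and treated arrays did not overlap at 2 h. D- cells had 3.11, 2.67, 3.21 and 3.17 untreated, 3.99, 3.42 and 3.02 at 2 h and 3.87, 3.14 and 3.10 at 6 h; WT cells had 3.21, 2.99, 3.17 and 2.96, then 4.81, 5.84 and 5.08, then 7.79, 7.87 and 7.24. No D- array passed 4. The difference at 6 h was -4.22 ± 0.37 (limma adjusted p = 1.79e-06; floored -2.63), against -1.72 ± 0.37 at 2 h (adjusted p = 0.0543), and the change between the times was -2.50 ± 0.39 (adjusted p = 0.00715). The probes of these paralogs can share RNA, so their values are not separate evidence.

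Sgip1, an endocytic protein, rose steeply in both lines and less in D- cells. D- cells had 5.41, 4.99, 5.41 and 5.66 untreated, 11.17, 11.47 and 10.73 at 2 h and 10.66, 10.73 and 10.80 at 6 h; WT cells had 4.31, 3.21, 3.91 and 3.22, then 10.96, 12.11 and 11.95, then 11.01, 11.93 and 11.34. The lines overlapped at 2 h and did not at 6 h, and the WT untreated level lay near the floor. The difference was -2.26 ± 0.41 at 2 h (limma adjusted p = 0.0198) and -2.40 ± 0.41 at 6 h (adjusted p = 0.00422), against floored values of -0.92 and -1.06 that were not called.

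C4bp, complement component 4 binding protein, restrains complement. D- cells had 4.02, 3.79, 4.50 and 3.93 untreated, 3.83, 4.52 and 4.05 at 2 h and 3.95, 3.92 and 4.11 at 6 h; WT cells had 3.88, 4.04, 3.89 and 4.03, then 7.05, 6.93 and 6.41, then 7.41, 7.03 and 6.34. All D- arrays lay under 5, at the level of untreated WT cells. The difference was -2.76 ± 0.33 at 2 h (limma adjusted p = 0.000165) and -3.03 ± 0.33 at 6 h (adjusted p = 2.56e-05), with floored values of -1.80 and -1.93.

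Lgals7 encodes galectin-7, a lectin that binds galactosides. D- cells had 4.06, 3.91, 4.31 and 4.13 untreated, 4.59, 4.49 and 4.17 at 2 h and 4.03, 5.26 and 5.05 at 6 h; WT cells had 7.41, 6.55, 6.67 and 7.64, then 9.03, 9.19 and 9.76, then 10.49, 10.18 and 10.34. The lines already lay apart when untreated. The difference was -1.94 ± 0.39 at 2 h (limma adjusted p = 0.0371), kept in 10 of the 20 fits without 1 array, and -2.59 ± 0.39 at 6 h (adjusted p = 0.00113), kept in all 20; the floored values were -2.26 and -3.17.

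The other 4 genes called lower at both times by the probe set that stands for them had smaller differences. Txndc16, a thioredoxin-domain protein of the endoplasmic reticulum, had -1.30 ± 0.25 and -1.24 ± 0.25 (limma adjusted p = 0.0265 and 0.0187). Cipc, which binds and represses the clock factor CLOCK, had -1.15 ± 0.22 and -0.98 ± 0.22 (limma adjusted p = 0.029 and 0.0473): at 2 h its level was 7.25 to 7.58 in D- and 7.99 to 8.49 in WT cells, and at 6 h 8.33 to 8.37 in D- and 8.74 to 9.23 in WT cells. Carhsp1, a cold-shock-domain RNA-binding protein, had -0.90 ± 0.16 and -1.06 ± 0.16 (limma adjusted p = 0.0152 and 0.000905). A second Carhsp1 probe set had -0.47 and -0.89 and was called at neither time. With the mean of its probe sets the Carhsp1 call at 2 h was lost. Wdtc1, a substrate receptor of a cullin ubiquitin ligase, had -0.80 ± 0.16 and -0.84 ± 0.16 (limma adjusted p = 0.041 and 0.0163). In each of these genes treated D- and WT arrays did not overlap at either time. The genes were chosen by calls on these same arrays, so this is no separate evidence. How many of all probe sets did not overlap was not counted. Calls were lost most often for Wdtc1 at 2 h, kept in 7 of 20 fits without 1 array, and for Cipc, kept in 10 at 2 h and 6 at 6 h. Elavl4, Tnk2 and Ceacam1 were called lower at both times by 1 probe set each that was not the brightest of its gene. With values floored before the fit, the Elavl4 and Ceacam1 probe sets lost both calls (floored -0.74 at each time for Elavl4, and -0.67 and -0.66 for Ceacam1).

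**Figure D3:**
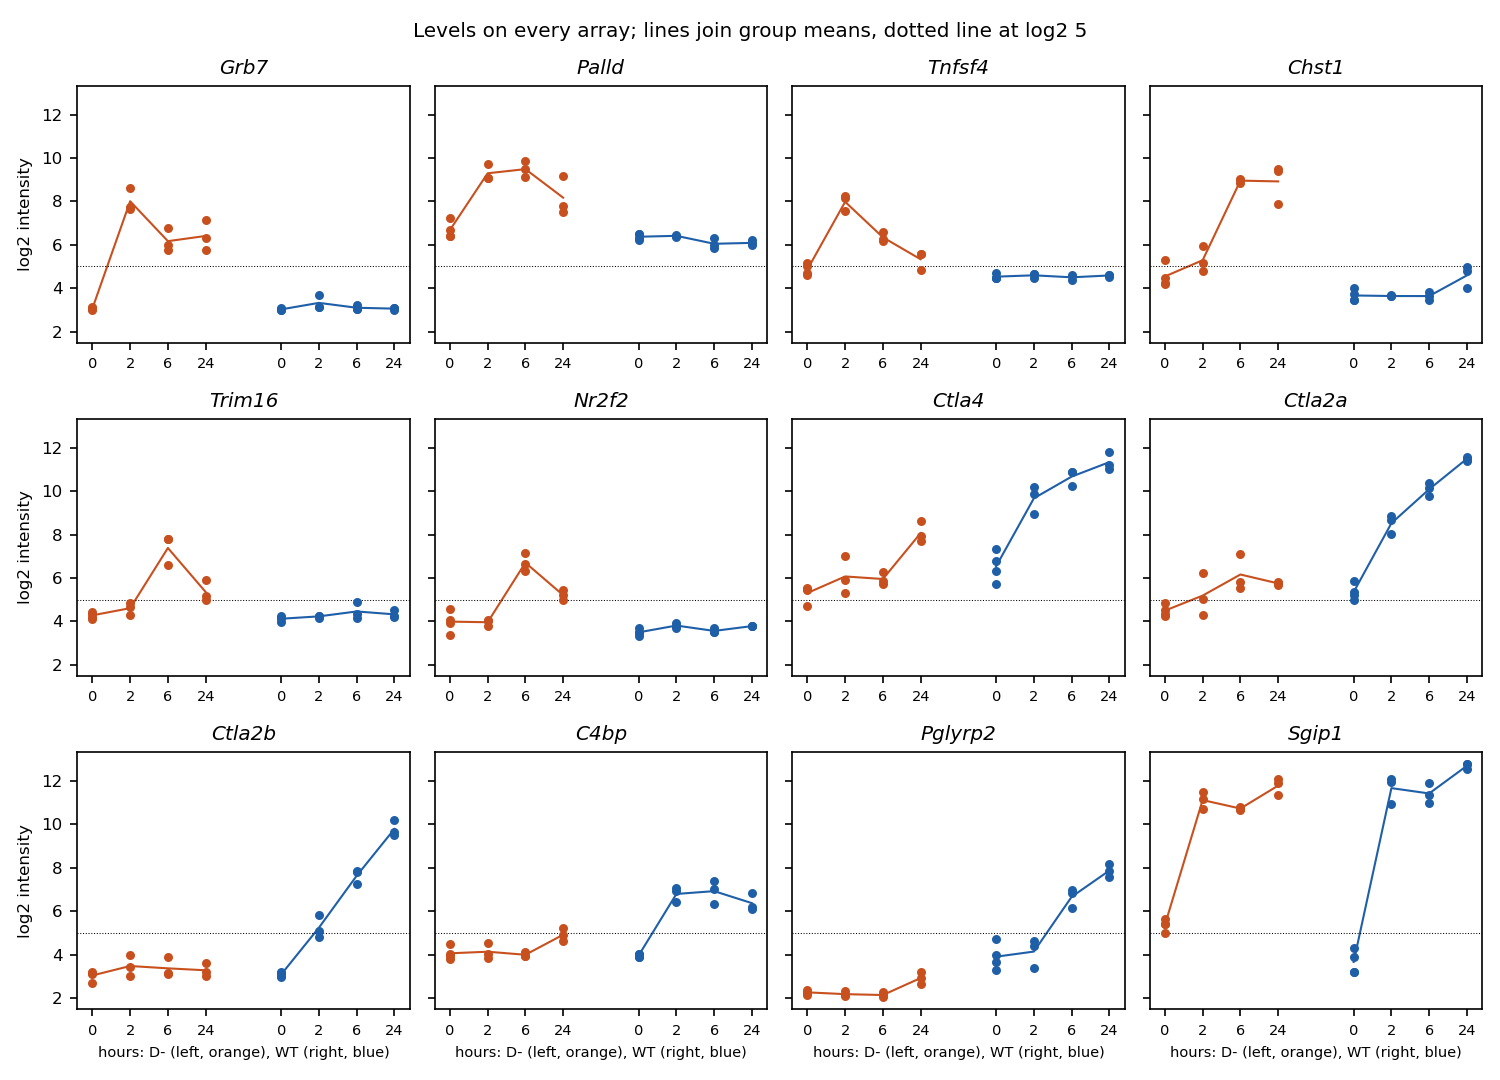
Log2 intensity of 12 genes on every array by hours of 8-CPT-cAMP, with D- cells at the left (orange) and WT cells at the right (blue) of each panel; lines join group means and the dotted line marks log2 5. Grb7, Palld and Tnfsf4 rise in D- cells alone at 2 h and Chst1, Trim16 and Nr2f2 at 6 h. C4bp, Ctla2b and Pglyrp2 rise in WT cells alone. The 24 h arrays shown lie outside the 2 h and 6 h contrasts but enter the filter and the shared spread.

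Seen at 6 h only were 9 probe sets, 6 higher and 3 lower in D- cells, for 8 genes. Chst1, a sulfotransferase of keratan sulfate, had the largest value. D- cells had 4.19, 4.47, 4.22 and 5.28 untreated, 5.14, 4.79 and 5.94 at 2 h and 8.99, 8.84 and 9.04 at 6 h; WT cells had 4.00, 3.73, 3.46 and 3.47, then 3.63, 3.67 and 3.62, then 3.65, 3.45 and 3.81. The WT arrays lay between 3.45 and 4.00. The difference was 0.77 ± 0.47 at 2 h (limma adjusted p = 0.999) and 4.44 ± 0.47 at 6 h (adjusted p = 1.97e-05; floored 3.89), and the change between the times was 3.67 ± 0.50 (adjusted p = 0.0019).

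Nr2f2 encodes COUP-TFII, an orphan nuclear receptor that acts mostly as a repressor. D- cells had 3.92, 3.39, 4.57 and 4.08 untreated, 3.81, 4.06 and 4.02 at 2 h and 7.15, 6.66 and 6.31 at 6 h, and the WT arrays lay between 3.32 and 3.93. The 6 h D- arrays stood apart from all the others. The difference was 2.65 ± 0.28 at 6 h (limma adjusted p = 1.97e-05; floored 1.71) and -0.34 ± 0.28 at 2 h (adjusted p = 0.999).

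Trim16, a tripartite motif ubiquitin ligase, had 4.09, 4.45, 4.23 and 4.35 untreated, 4.67, 4.84 and 4.32 at 2 h and 6.59, 7.77 and 7.78 at 6 h in D- cells. In WT cells it lay between 3.96 and 4.91. The difference at 6 h was 2.77 ± 0.35 (limma adjusted p = 0.000156; floored 2.38), and that at 2 h was 0.22 ± 0.35 (adjusted p = 0.999). Lasp1, a LIM and SH3 protein of the actin cytoskeleton, was seen by 2 probe sets (0.80 ± 0.18 and 0.78 ± 0.16 at 6 h; limma adjusted p = 0.0409 and 0.023), while its brightest probe set had 0.77 with an adjusted p of 0.15. Ifitm2, an interferon-induced transmembrane protein, had 1.79 to 2.08 untreated, 1.98 to 3.10 at 2 h and 4.82 to 5.24 at 6 h in D- cells, against 9.58 to 10.34 on all WT arrays. Its difference of 3.03 ± 0.40 at 6 h (limma adjusted p = 0.000242) rested on values under 5: floored, it was 0.01.

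Besides Ctla2b, Pglyrp2 and Cd300lf were counted as lower at 6 h only. Pglyrp2, an amidase that cleaves peptidoglycan, had 2.16 to 2.35 untreated, 2.09 to 2.32 at 2 h and 2.03 to 2.27 at 6 h in D- cells; WT cells had 3.27 to 4.70, then 3.39 to 4.64, then 6.15, 6.99 and 6.85. It rose in WT cells at 6 h and stayed under 3 on every D- array. The difference at 6 h was -2.88 ± 0.40 (limma adjusted p = 0.000364; floored -1.66). Cd300lf, an immunoglobulin-family inhibitory receptor known from myeloid cells, had 6.10, 6.24, 6.57 and 6.06 untreated, 6.05, 5.97 and 6.31 at 2 h and 6.08, 6.41 and 6.04 at 6 h in D- cells, against 6.51 to 7.01, then 6.64, 6.86 and 6.84, then 7.95, 8.32 and 8.54 in WT cells. The difference was -1.49 ± 0.24 at 6 h (limma adjusted p = 0.00248) and -0.07 ± 0.24 at 2 h (adjusted p = 0.999).

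A further 39 probe sets, 7 higher and 32 lower in D- cells, passed at 6 h and not at 2 h without passing the test between the times, so their timing is not settled. Ctla4, an inhibitory receptor of T cells, was among the largest. D- cells had 5.45, 4.73, 5.51 and 5.55 untreated, 6.99, 5.92 and 5.30 at 2 h and 6.28, 5.73 and 5.85 at 6 h; WT cells had 6.76, 5.72, 6.33 and 7.35, then 8.96, 10.19 and 9.88, then 10.90, 10.86 and 10.25. The lines did not overlap at either time, nor did they overlap when untreated. The difference was -2.37 ± 0.55 at 2 h (limma adjusted p = 0.0792) and -3.49 ± 0.55 at 6 h (adjusted p = 0.00202). Apart from Zap70, Ppp1r15a and Stat5b, the genes described among these 39 were named after their values were seen.

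Prkcq, protein kinase C theta, which acts downstream of the T cell receptor, had 8.37, 7.95 and 7.51 in D- and 10.13, 10.49 and 10.42 in WT cells at 6 h (difference -2.09 ± 0.41, limma adjusted p = 0.0163), a call lost without D- 6 h replicate 3 or WT 6 h replicate 2 or 3. Dgka, diacylglycerol kinase alpha, which removes the lipid that activates protein kinase C, had 5.91, 5.48 and 5.42 in D- and 8.66, 8.30 and 8.62 in WT cells at 6 h (difference -1.71 ± 0.28, limma adjusted p = 0.00284). The Dgka levels lay further apart than the difference of response, as they also hold the gap before treatment. Wherever only treated levels are given, they likewise include any gap between the untreated lines. Zap70, the kinase recruited by the receptor's zeta chain, rose in both lines, with 11.14, 11.23 and 11.29 in D- and 12.06, 12.12 and 11.97 in WT cells at 6 h (difference -0.59 ± 0.12, limma adjusted p = 0.0163). Without D- 6 h replicate 1 or WT 6 h replicate 2 the Zap70 call was lost. A dimmer Zap70 probe set had -0.16 at 6 h and was not called, and the call was also lost with the mean of the probe sets. Ceacam1, an adhesion receptor, had a lower difference at 6 h by its brightest probe set (-1.39 ± 0.25, limma adjusted p = 0.00567) and 3 others. Those of the 3 with a mean under log2 5 lost the 6 h call with values floored before the fit. Ceacam1 probes can share RNA with related family members. Slfn2, a Schlafen family gene of T cells, had 6.64, 6.74 and 6.45 in D- and 7.97, 8.12 and 8.28 in WT cells at 6 h (difference -1.38 ± 0.25, limma adjusted p = 0.00686).

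Further genes had a negative difference at 6 h. Ppp1r15a (GADD34), which directs dephosphorylation of eIF2 alpha, had 7.63, 7.40 and 6.95 in D- and 8.46, 8.94 and 8.55 in WT cells (difference -1.65 ± 0.34, limma adjusted p = 0.0253), with the call kept in 12 of the 20 fits without 1 array. Vps37b, a subunit of ESCRT-I, had 7.56, 8.39 and 8.28 in D- and 9.17, 10.58 and 10.32 in WT cells (-2.13 ± 0.44, limma adjusted p = 0.024; kept in 14 fits). Acer2, an alkaline ceramidase, had 6.75, 6.28 and 6.64 in D- and 7.96, 9.10 and 8.70 in WT cells (-2.80 ± 0.55, limma adjusted p = 0.0168), against a floored value of -2.08 that was not called. Brd7, a bromodomain protein of a chromatin remodelling complex, fell in D- cells to 10.70, 10.62 and 10.72, against 10.57, 10.56 and 10.38 in WT cells, with untreated levels of 11.84 ± 0.13 in D- and 10.70 ± 0.145 in WT cells (SD, n = 4 each; difference -0.97 ± 0.14, limma adjusted p = 0.001). Adk, adenosine kinase, had 10.75, 10.12 and 10.46 in D- and 11.55, 12.28 and 12.03 in WT cells at 6 h (-1.31 ± 0.27, limma adjusted p = 0.0204), and Prep, prolyl endopeptidase, had 9.29, 9.12 and 9.25 in D- and 10.11, 9.90 and 9.91 in WT cells (-0.91 ± 0.15, limma adjusted p = 0.00372). Both fell in D- cells and rose in WT cells by the tests of each line. Fbln2, an extracellular matrix protein, was higher in untreated D- cells (6.38 to 7.12) than in untreated WT cells (3.19 to 4.91) and fell to 3.49, 4.17 and 4.03 in D- cells at 6 h, against 3.76, 3.39 and 2.87 in WT cells (-2.14 ± 0.42, limma adjusted p = 0.0163; floored -1.69). With a positive difference, Dynll1, a dynein light chain, had 14.61, 14.62 and 14.62 in D- and 14.03, 13.77 and 13.88 in WT cells at 6 h (0.72 ± 0.15, limma adjusted p = 0.023; kept in 14 fits).

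The 9 probe sets that passed at 2 h and not at 6 h were all lower in D- cells, and the change between the times did not pass for any. Slamf1, a self-ligand costimulatory receptor of T cells, had 6.61, 6.68 and 6.97 in D- and 8.13, 8.43 and 8.52 in WT cells at 2 h. At 6 h it had 8.60, 9.03 and 9.01 in D- and 8.34, 9.29 and 9.27 in WT cells, from untreated levels of 6.07 to 6.53 in D- and 5.84 to 6.18 in WT cells. The lines did not overlap at 2 h and overlapped at 6 h, where both had risen. The difference was -1.83 ± 0.37 at 2 h (limma adjusted p = 0.0385) and -0.31 ± 0.37 at 6 h (not called), and the change between the times was 1.52 ± 0.40 (adjusted p = 0.252); its 2 h call was kept in 7 of 20 fits without 1 array. A second Slamf1 probe set had -2.36 ± 0.41 at 2 h (limma adjusted p = 0.0152) and a change of 2.17 ± 0.44 (adjusted p = 0.0575). Ctdsp2, a small phosphatase of the RNA polymerase II tail, had 9.43, 9.52 and 9.47 in D- and 9.89, 10.53 and 10.66 in WT cells at 2 h (-1.14 ± 0.21, limma adjusted p = 0.0191) and -0.82 ± 0.21 at 6 h (adjusted p = 0.0897). Its dimmer probe sets had -0.25 and -0.61 at 2 h and were not called.

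The test between the times was passed by 4 probe sets that passed at neither single time, all with a higher difference at 6 h than at 2 h. Rag1, the recombinase of antigen receptor genes, had 12.25, 12.24, 11.58 and 11.65 untreated, 8.37, 7.78 and 8.29 at 2 h and 7.92, 7.39 and 8.22 at 6 h in D- cells; WT cells had 11.40, 11.57, 12.01 and 11.53, then 8.80, 9.32 and 8.79, then 6.84, 5.90 and 5.64. D- arrays lay under WT arrays at 2 h and above them at 6 h. The difference was -1.12 ± 0.38 at 2 h and 1.41 ± 0.38 at 6 h, and the change was 2.54 ± 0.40 (limma adjusted p = 0.00715). Ak4, a mitochondrial adenylate kinase, had 4.22, 4.31 and 4.83 at 2 h and 6.27, 7.26 and 7.09 at 6 h in D- cells, against 4.21, 4.32 and 4.31, then 3.91, 4.00 and 3.94 in WT cells (change 2.75 ± 0.49, limma adjusted p = 0.0161). Its floored differences were -0.92 at 2 h and 0.95 at 6 h. Arvcf, a catenin of adherens junctions, and Maged2, of the MAGE family, had changes of 1.10 ± 0.19 and 1.17 ± 0.21 (limma adjusted p = 0.014 and 0.0184).

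Of the 25 genes listed as CREB targets and immediate-early genes, 16 were measured and none was called at either time, against 0.242% of genes called at 2 h and 0.592% at 6 h, so a count of 0 does not set the list apart; the median difference was 0.21 at 2 h and 0.02 at 6 h, against -0.0089 and 0.0046 over all genes. Crem, a cyclic AMP-responsive repressor, had 9.93, 10.38 and 10.64 in D- and 11.10, 10.09 and 9.46 in WT cells at 2 h, from 4.15 to 4.59 in D- and 4.17 to 4.32 in WT cells untreated. Its differences were -0.02 ± 0.71 at 2 h and -1.11 ± 0.71 at 6 h (limma adjusted p = 0.999 and 0.976; floored 0.10 and -0.99). Fos, a subunit of AP-1, had 10.19, 10.20 and 10.53 in D- and 9.51, 8.75 and 9.73 in WT cells at 2 h (difference 0.57 ± 0.53, limma adjusted p = 0.999; floored 0.97), and its 6 h difference was -0.82 ± 0.53 (adjusted p = 0.992; floored -0.42). Nr4a1, an orphan nuclear receptor, had a difference of 1.04 ± 0.41 at 2 h and 0.96 ± 0.41 at 6 h (limma adjusted p = 0.683 and 0.661). Dusp1, Rgs2 and Per1 rose in both lines at 2 h, with differences between 0.12 and 0.57 at 2 h and between -0.60 and 0.49 at 6 h, none of them called. Gem, a small GTPase of the list, had 4.94, 6.01 and 7.02 in D- and 2.77, 2.99 and 2.90 in WT cells at 6 h, a difference of 3.02 ± 0.73 that missed the threshold (limma adjusted p = 0.0749) and was 1.01 when floored. Of 28 genes of the cyclic AMP and PKA pathway, 17 were measured and 0 called, with medians of 0.0007 and 0.04. Prkaca, the catalytic subunit, had differences of -0.11 ± 0.22 and 0.06 ± 0.22, and Prkar1a, the regulatory subunit, 0.0007 ± 0.15 and -0.07 ± 0.15. With these errors a difference of the size of its own SE could not be told from 0.

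None of 16 measured of 27 pro-apoptotic genes and none of 15 measured of 17 anti-apoptotic genes was called at either time, against 0.242% of all genes at 2 h and 0.592% at 6 h, so these counts are no result about the lists. They had medians of -0.14 and -0.09 for the first list and -0.11 and -0.04 for the second at 2 h and 6 h. Bcl2l11, which encodes the BH3-only killer BIM, rose in both lines: it had 10.84, 11.05 and 10.89 in D- and 10.69, 10.87 and 10.78 in WT cells at 2 h, and 10.11, 10.42 and 10.45 in D- and 10.19, 10.66 and 10.37 in WT cells at 6 h, from 9.16 to 9.69 in D- and 8.86 to 9.19 in WT cells untreated. Its difference was -0.24 ± 0.31 at 2 h and -0.47 ± 0.31 at 6 h (limma adjusted p = 0.999 and 0.995). The lines overlapped at both times. The survival genes Bcl2 and Mcl1 had differences between 0.0009 and 0.16, none called. Foxo1, a forkhead factor upstream of death and arrest genes, had 0.46 ± 0.28 at 2 h and -0.11 ± 0.28 at 6 h, and Cdkn1b, the cell-cycle inhibitor p27, had -0.20 ± 0.42 and -0.31 ± 0.42. Myc fell in both lines, to 7.03, 7.69 and 7.36 in D- and 8.01, 7.70 and 8.16 in WT cells at 2 h (difference -0.67 ± 0.43, limma adjusted p = 0.999). Nr3c1, the glucocorticoid receptor, had 0.0043 ± 0.33 and 0.06 ± 0.33, and Ptcra, the pre-T cell receptor alpha chain, had 0.13 ± 0.67 and -1.88 ± 0.67 (limma adjusted p = 0.448 at 6 h).

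Gzmb, the cytotoxic protease granzyme B, is on the pro-apoptotic list and had a large difference that was not called. D- cells had 10.91, 4.46, 5.92 and 6.00 untreated, 15.02, 12.52 and 12.29 at 2 h and 15.19, 13.77 and 13.25 at 6 h; WT cells had 4.61, 4.74, 4.71 and 4.71, then 6.95, 7.04 and 6.10, then 6.36, 9.13 and 6.76. Treated D- arrays lay far above treated WT arrays, and the untreated D- arrays ranged over more than 6 log2 units, with replicate 1 the highest. The difference was 4.45 ± 1.51 at 2 h and 4.52 ± 1.51 at 6 h (limma adjusted p = 0.477 and 0.363; floored 4.62 and 4.70).

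Of the 22 gene lists examined, 3 had 1 called member each, all lower in D- cells at 6 h: Zap70 in the T cell list (23 measured), Stat5b in the cytokine and JAK-STAT list (20) and Ppp1r15a in the list of unfolded protein and amino acid stress genes (30). Stat5b, a transcription factor activated by cytokine receptors, had -0.69 ± 0.16 (limma adjusted p = 0.0499), a call kept in 3 of 20 fits without 1 array. The other lists had none called, against 0.592% of all genes at 6 h, so no list can be said to stand out by its calls.

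**Figure D4:**
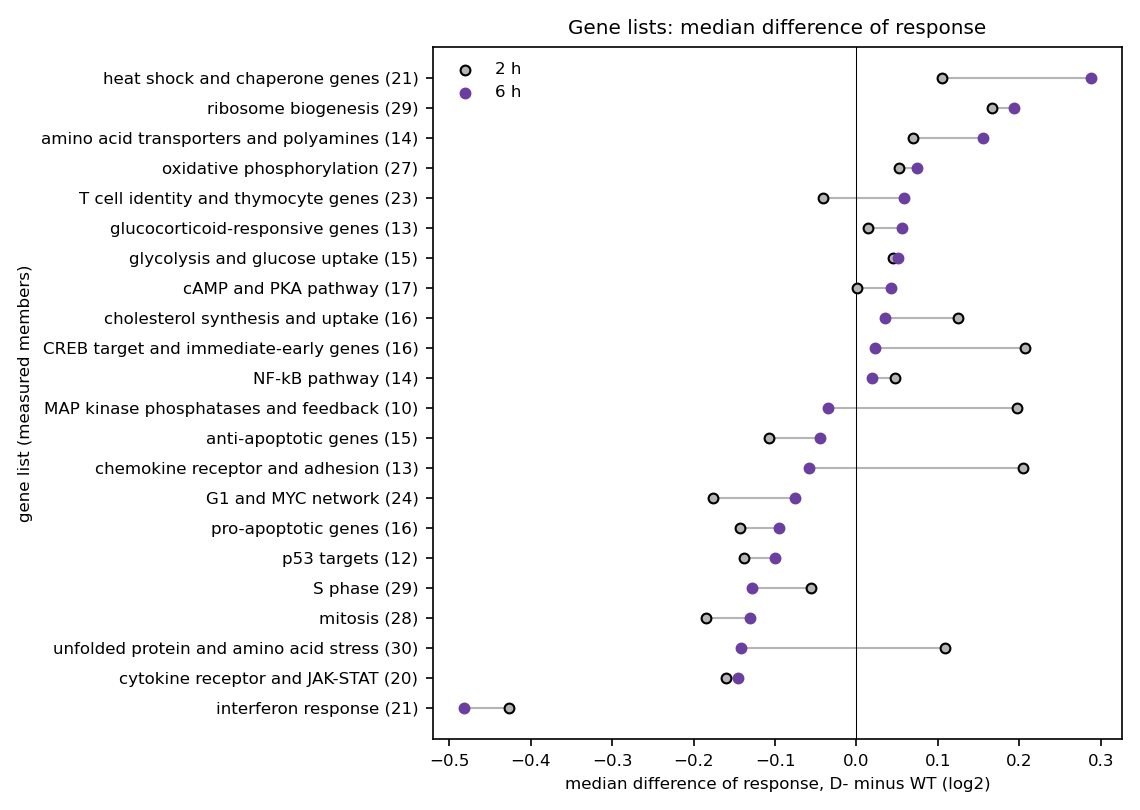
Median difference of response, D- minus WT (log2), at 2 h (grey) and 6 h (purple) for 22 gene lists, with the number of measured members in parentheses. The interferon list has the lowest medians (-0.43 and -0.48) and the heat shock list the highest 6 h median (0.29), with no member of either called.

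The interferon response list, of genes induced by interferons and their regulators, had medians of -0.43 at 2 h and -0.48 at 6 h over 21 measured members, with 0 called. Irf1, an interferon-responsive transcription factor, had 10.37, 9.69 and 9.44 in D- and 10.21, 11.32 and 11.75 in WT cells at 2 h, and 9.04, 8.36 and 8.54 in D- and 9.34, 10.19 and 10.73 in WT cells at 6 h. The lower treated WT arrays were replicate 1, of the first cluster. Irgm1, an immunity-related GTPase, had 8.20, 7.74 and 7.58 in D- and 7.95, 8.97 and 10.01 in WT cells at 2 h, with a difference of -1.71 ± 0.57 (limma adjusted p = 0.434). Iigp1, another such GTPase, had 5.02, 4.09 and 4.53 in D- and 4.44, 8.38 and 8.36 in WT cells at 6 h (-2.71 ± 1.14, limma adjusted p = 0.652; floored -2.24). Mx1, an antiviral GTPase, had the opposite sign, with 7.22, 6.76 and 6.27 in D- and 5.66, 5.29 and 5.86 in WT cells at 6 h (1.05 ± 0.34, limma adjusted p = 0.334). The heat shock list (21 measured) had medians of 0.11 and 0.29. Hsph1, a co-chaperone of HSP70, had 11.50, 11.84 and 11.85 in D- and 10.61, 10.38 and 10.44 in WT cells at 6 h, and Hspa1b, an inducible HSP70, had 6.90, 7.32 and 7.19 in D- and 6.50, 6.20 and 6.36 in WT cells; their differences were 0.70 ± 0.20 and 0.79 ± 0.28 (limma adjusted p = 0.197 and 0.424). Ribosome biogenesis genes (29 measured) had medians of 0.17 and 0.19, with Pa2g4, a growth-regulated ribosome-associated protein, at 11.54, 11.54 and 11.72 in D- and 11.19, 10.75 and 10.74 in WT cells at 6 h. The Pa2g4 difference of response at 6 h was 0.60 and was not called (limma adjusted p = 0.676).

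The called differences were followed within the 2 clusters of arrays. With the cluster as a term in the fit, 71 probe sets were called at 2 h, 138 at 6 h and 38 at both times. Within the cluster of 16 arrays, 24 h arrays included, the counts were 96, 215 and 51. Within that of 10, where each treated group is 1 array and the spread comes from the 2 untreated groups of 2, they were 1 (Grb7), 0 and 0. Of 86 calls of single probe sets, at 2 h or 6 h, all 86 had the same sign within each cluster. With the cluster term 86 were called, and within the larger cluster 60. The clusters were drawn from the scatter of these same arrays within groups, so a cluster term takes up part of that scatter. These counts are therefore no independent check of the calls. Ctla2a at 2 h had -0.93 in the smaller and -3.26 in the larger cluster, and Trim16 at 6 h had 1.61 in the smaller and 3.31 in the larger. No array's omission ended the calls of Grb7, Palld, Tnfsf4 and C4bp at either time, nor those of Chst1, Trim16, Nr2f2, Ctla2b, Pglyrp2, Ctla4, Cd300lf, Dgka, Slfn2, Brd7 and Prep at 6 h.

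**Figure D5:**
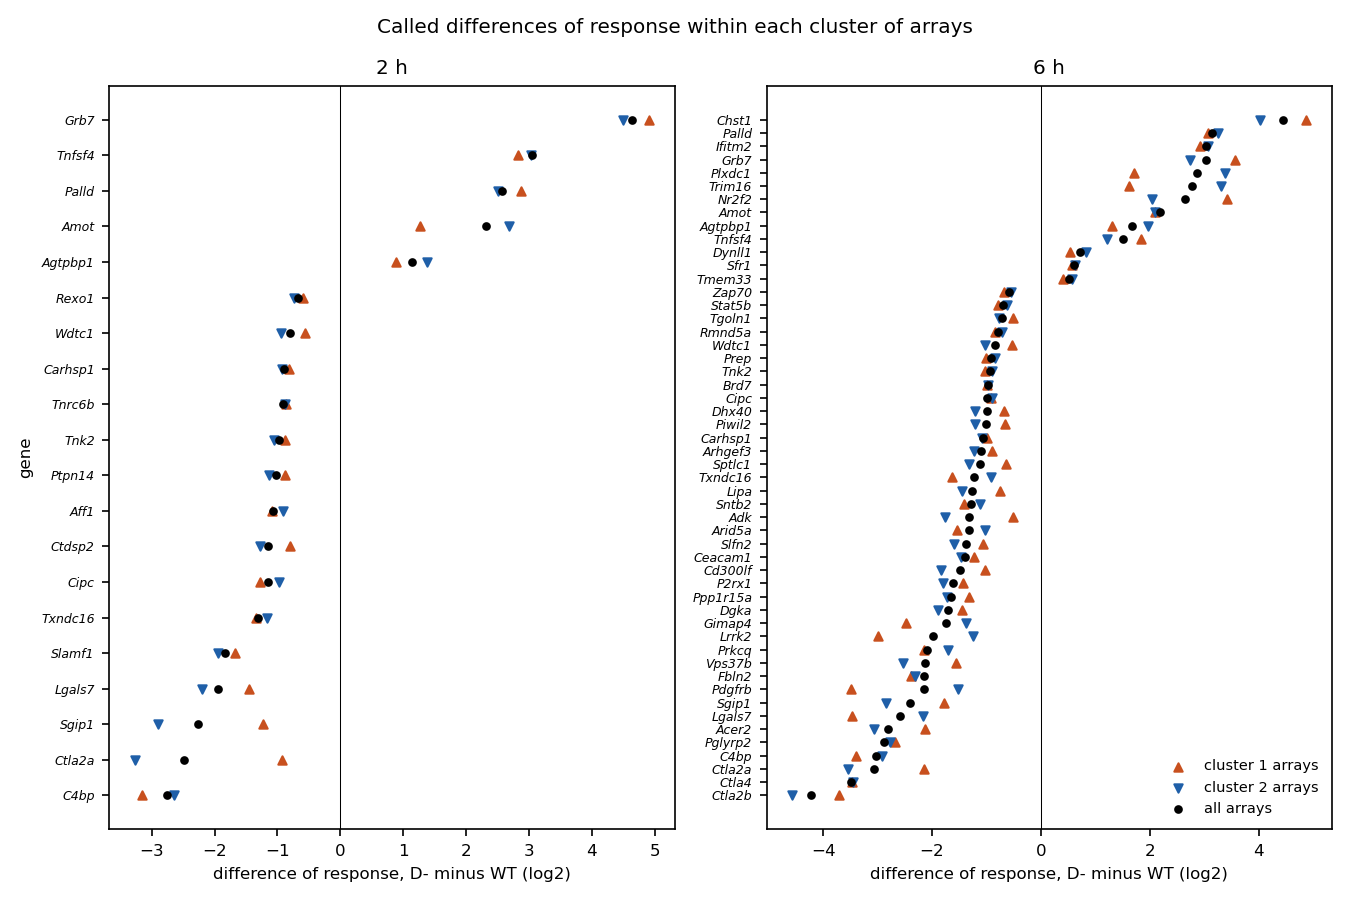
Differences of response, D- minus WT (log2), at 2 h and 6 h for the called genes, from all arrays (black), from the cluster of 10 arrays (orange, upward) and from the cluster of 16 arrays (blue, downward). All have 1 sign in both clusters, while sizes differ, as for Ctla2a at 2 h with -0.93 and -3.26.

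The lines were also set against each other directly at 24 h, on arrays that are not in the 2 h and 6 h contrasts. These arrays did enter the filter and the shared spread behind the 2 h and 6 h calls. The overlap at 24 h is therefore not independent of those calls. Of the 75 probe sets called at 2 h or 6 h, 59 differed between D- and WT cells at 24 h by limma's test, against 29.1% of all probe sets, and 56 had the sign of the earlier difference. Of the 75, 21 also differed between the untreated lines, against 4.53% of all probe sets. That comparison rests on the 8 untreated arrays that enter both contrasts, so the overlap is not independent of them; a level that differs before treatment enters the difference of response with its own error. Chst1 was still high in D- cells at 24 h (8.92 ± 0.90 in D- and 4.59 ± 0.52 in WT cells, SD, n = 3 each). Trim16 and Nr2f2 lay lower than at 6 h, as Trim16 had 5.35 ± 0.51 in D- and 4.32 ± 0.16 in WT cells and Nr2f2 had 5.21 ± 0.24 in D- and 3.78 ± 0.015 in WT cells.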

How the data were processed

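RNA of 26 samples of S49 D- and WT cells was hybridised to 1 Affymetrix mouse array each. The deposited values are intensity on a linear scale, from 2 to 83530.7, which the authors made with GCRMA per the submitters' processing notes; the sources used here do not give its version, or say if D- and WT arrays were normalized together. Median intensity per array lay between 41.7 and 45.5. Log2 was taken with no pseudocount and no further normalization. Groups follow the source name; treated WT samples are titled untreated, against their source and description, and were used as treated. The labelled dose of 100 mM may be a unit error.

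The 64 control probe sets were left out. Genes were named from the platform annotation: of 12724 probe sets tested, 11672 had 1 symbol, 449 several and 603 none. The lmFit and eBayes functions of limma 3.58.1, in R 4.3.3, were applied to 26 arrays in 8 groups that share 1 spread, with Benjamini-Hochberg adjustment per contrast; the fit was tested on simulated data. Arrays give no depth, so their number limits the precision, and no 2 arrays held identical values. No per-sample column was left out.

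The members and lists were chosen with earlier results of these data known. The named genes were, by rule, called genes ranked by the floored difference (both times, and 1 time with the test between the times), 2 called members per list, and 17 genes fixed whether called or not; others were named after their values were seen. Replicate numbers were not taken as pairs, since 4 of 12 pairs of treated and untreated arrays with 1 number had r of 0.1 or less (range -0.468 to 0.60); of 10 such pairs of D- and WT arrays, all had r above 0 and 8 above 0.1. Alternatives changed moderation, array weights, arrays, normalization, filter, floor, probe set rule and blocks, and left out each array. Promoter windows are RefSeq's (GRCm38.p6).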

Additional observations from a re-analysis of the deposited data

Results flagged for a closer look

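Differences of response that passed limma's test, for genes described singly above and not for all called genes, are given as log2 values of D- minus WT. At both times they were 4.64 and 3.03 for Grb7, 3.05 and 1.51 for Tnfsf4, 2.58 and 3.13 for Palld, and 1.14 and 1.66 for Agtpbp1. With a lower response in D- cells at both times were C4bp (-2.76 and -3.03), Ctla2a (-2.48 and -3.07), Sgip1 (-2.26 and -2.40), Lgals7 (-1.94 and -2.59), Txndc16 (-1.30 and -1.24), Cipc (-1.15 and -0.98), Carhsp1 (-0.90 and -1.06) and Wdtc1 (-0.80 and -0.84). At 2 h Slamf1 had -1.83 and Ctdsp2 -1.14. With a higher response in D- cells at 6 h were Chst1 (4.44), Ifitm2 (3.03, floored 0.01), Trim16 (2.77), Nr2f2 (2.65) and Dynll1 (0.72). With a lower response in D- cells at 6 h were Ctla2b (-4.22), Ctla4 (-3.49), Pglyrp2 (-2.88), Acer2 (-2.80), Fbln2 (-2.14), Vps37b (-2.13), Prkcq (-2.09), Dgka (-1.71), Ppp1r15a (-1.65), Cd300lf (-1.49), Ceacam1 (-1.39), Slfn2 (-1.38), Adk (-1.31), Brd7 (-0.97), Prep (-0.91), Stat5b (-0.69) and Zap70 (-0.59).

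An untreated array was flagged as apart from the other 3 of its group in 8 of 134 tests over 67 genes. Chance alone flags about 1 in 20. In D- cells the flagged arrays were replicate 2 for Irgm1 (8.64, others 7.94 to 8.00), Wdtc1 (8.30, others 8.15 to 8.17) and Ctla4 (4.73, others 5.45 to 5.55), and replicate 4 for Prep (9.65, others 9.67 to 9.68). The flag did not follow the size of the gap: that of Prep was small, while the high untreated D- array of Gzmb was not flagged. In WT cells they were replicate 2 for Arvcf (7.19, others 7.53 to 7.61) and Tnfsf4 (4.70, others 4.47 to 4.48), replicate 1 for Carhsp1 (8.24, others 7.99 to 8.03) and replicate 3 for Iigp1 (3.02, others 3.68 to 3.69).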

How the results depend on the processing

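The 86 single calls kept their sign under every alternative that tested them, and 34 stayed called whichever 1 of the 20 arrays was left out. Some were not followed under the higher filter or the mean of the probe sets of a gene. Every alternative drew on arrays that had given the calls, so the kept signs are no separate evidence. With the replicate number as a block, 55 probe sets were called at 2 h, 92 at 6 h, 31 at both times, 25 between the times, 1 at 2 h only and 11 at 6 h only; 83 of the 86 calls remained under this pairing. In the same order, array weights gave 110, 353, 52, 178, 14 and 79, the cluster as a block 71, 138, 38, 37, 3 and 19, the cluster of 16 arrays 96, 215, 51, 114, 12 and 57, and that of 10 arrays 1, 0, 0, 0, 0 and 0, against 27, 66, 18, 14, 0 and 9. The fit within the 10 arrays has few residual degrees of freedom and 1 array in each treated group, assumed to vary like the untreated groups. Setting values under 5 to 5 gave 42 calls at 2 h and 3 at 2 h only. The number at 2 h only was 1 with the 20 arrays alone, 2 with quantile normalization and 2 without a filter; the alternatives for 2 h only and 6 h only were chosen after seeing the data. Counting a call at 1 time with an unadjusted p under 0.05 and the same sign at the other gave 46 at both times. Array weights moved the share of higher calls at 6 h to 162 of 353, against 18 of 66. Leaving out 1 array gave 7 to 49 at 2 h, 35 to 110 at 6 h, 5 to 25 at both times, 5 to 25 between the times, 0 to 3 at 2 h only and 4 to 18 at 6 h only. Counts moved over 1.5 times at 2 h without D- untreated replicate 1 or 2 (16 and 15), D- 2 h replicate 2 or 3 (11 each), WT untreated replicate 1 (17) or WT 2 h replicate 1, 2 or 3 (49, 8 and 7). At 6 h this held for D- 6 h replicates 2 and 3 (43 and 42) and WT 6 h replicates 1, 2 and 3 (110, 35 and 43). At both times it held for D- untreated replicate 4 (11), D- 2 h replicates 2 and 3 (7 and 8) and WT 2 h replicates 2 and 3 (6 and 5). Between the times it held for D- 2 h replicate 2 (8), D- 6 h replicates 1 and 3 (23 and 8), WT 2 h replicate 3 (9) and WT 6 h replicates 1, 2 and 3 (25, 5 and 7), and at 6 h only for WT 6 h replicates 1 and 2 (18 and 4). The cause of these changes was not tested.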
